A study of Bos taurus with 11 samples.

Results

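The 10 genes described here, IER2, IER3, IER5, DUSP1, DUSP2, DUSP5, ZFP36, BTG2, PPP1R15A and GADD45B, belong to the early response, which is switched on quickly after cell stimulation. They were found by gene name on the Agilent bovine 44K array, which holds 20 probes for them among 43653 probes with 24839 distinct names. Among the genes, 7 have more than 1 probe, and each probe was read apart. The study profiled peripheral blood mononuclear cells (PBMCs, the lymphocytes and monocytes of blood) from 5 female Ladakhi cattle, the local breed of the high-altitude Ladakh region, and 6 female Sahiwal cattle from low altitude, described in the labels as basal. Each array was hybridised with Cy3-labelled RNA, and from the labels each is assumed to come from 1 animal. The labels give no age for either breed and no treatment for the Ladakhi cells, and breed and altitude are the same contrast.

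Early response genes are transcribed within minutes of a growth factor, cytokine or stress signal, because the factors that switch them on already sit in the cell. Several of their products then end the signal. Dual-specificity phosphatases (DUSPs) remove phosphate from MAP kinases, ZFP36 (tristetraprolin) binds AU-rich elements in messages and brings in the CCR4-NOT deadenylase, and BTG2 stimulates the same deadenylase. In leukocytes many of these messages are themselves short-lived.

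The probes that carry the comparisons are shown as 30-base stretches of each 60-base probe, 5′ to 3′ as the array files give them. Capitals mark ATTTA, the core of an AU-rich element, or, in IER2, AATAAA, the polyadenylation signal.
IER2 A_73_114011: agaatcgccagataggaaAATAAAgaccaa
IER3 A_73_P504623: ctcattgctcctaaatatATTTAtgtgtat
IER5 A_73_101059: tgggggaactgacaaggtttttgtacagta
DUSP1 A_73_P280851: tcttgtccctgtttcctgaagacacttttc
DUSP1 A_73_108770: tgtcctgtaaatatatcctaagcaggtttg
DUSP2 A_73_P081986: acttcagtttcatggggcagctgctgcagt
ZFP36 A_73_107435: ccagtgtctggtgattggagcctcacctga
BTG2 A_73_P166162: caattctgactcagaggtgctATTTAccaa
PPP1R15A A_73_107607: tttgtgttaactATTTATTTAtttgaatgt
GADD45B A_73_116438: ttacttgcacttgttacttgaaccactgaa

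On the strand given, ATTTA occurs in 3 of the 20 probes, those of IER3, BTG2 and PPP1R15A shown above, against 7.45% of all 43653 probes. The PPP1R15A probe holds it in 2 overlapping copies, and the longer run TATTTATTT, which 0.192% of all probes hold, also in 2 overlapping copies. AATAAA occurs in the IER2 probe and in 2 copies in the PPP1R15A probe, against 9.35% of all probes. On the other strand, ATTTA occurs in 4 of the 20 probes (IER3 A_73_P504623, DUSP1 A_73_108770, PPP1R15A A_73_107607 and GADD45B A_73_P379376) and in 8.68% of all probes. AATAAA occurs there in 2 of the 20, IER3 A_73_P031796 and PPP1R15A A_73_107607, and in 3.46% of all probes. A match describes these letters only.

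In the files' build, HGSC Btau_3.1, the IER2 probe lies at chr7:10697404-10697463 on the minus strand, IER3 A_73_P504623 at chr23:28208331-28208390 on the plus strand and IER5 A_73_101059 at chr16:59830571-59830630 on the plus strand. DUSP1 A_73_P280851 covers chr20:4576114-4576173 and DUSP1 A_73_108770 covers chr20:4575922-4575981, both on the minus strand, with starts 192 bases apart and A_73_108770 nearer the 3′ end. DUSP2 A_73_P081986 lies at chr11:2565212-2565271 on the minus strand, ZFP36 A_73_107435 at chr18:48605726-48605785 on the plus strand and BTG2 A_73_P166162 at chr16:80048-80107 on the plus strand. PPP1R15A A_73_107607 lies at chr18:55299423-55299482 on the plus strand and GADD45B A_73_116438 at chr7:19835624-19835683 on the minus strand. In 5 genes, IER2, IER5, BTG2, PPP1R15A and GADD45B, the probe shown is the most 3′ of the gene's probes. Exon and UTR limits were not used here.

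Signals are given as a percent of a reference level set in each array, the 75th percentile of the 2705 probes well above background on all 11 arrays. Levels and differences are log2 values on the same scale, and every breed difference is Ladakhi minus Sahiwal. The breeds also differ in slide, scanner and software version, so breed and array platform cannot be told apart. Ladakhi arrays had 4243 to 6608 spots well above background of 43803, and Sahiwal arrays had 17517 to 20574. The lowest level well above background averaged -3.61 on Ladakhi arrays and -8.24 on Sahiwal arrays. Of the probes well above background on all 6 Sahiwal arrays, 49.1% were so on no Ladakhi array. Weak messages could therefore be read in Sahiwal animals and not in Ladakhi animals. Since the cells were profiled in bulk, fewer cells of a type and less RNA per cell cannot be told apart.

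Of the 20 member probes, 9 were well above background on at least 1 Ladakhi array, 4 of them on 4 or 5 arrays. On the Sahiwal side, 16 were well above background on all 6 Sahiwal arrays. The remaining 11 probes, among them those of DUSP5 and PPP1R15A, were not well above background on any Ladakhi array. For these the Sahiwal mean lay at or under the lowest readable level averaged over the 5 Ladakhi arrays, so no fold is given. On single Ladakhi arrays that level was between -4.26 and -3.03. The Sahiwal means of IER5 A_73_P113791 (-3.61), DUSP1 A_73_P107251 (-3.72) and IER3 A_73_P031796 (-4.02) lay above the lowest of these. Their Ladakhi signals are not read as levels.

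**Figure D1:**
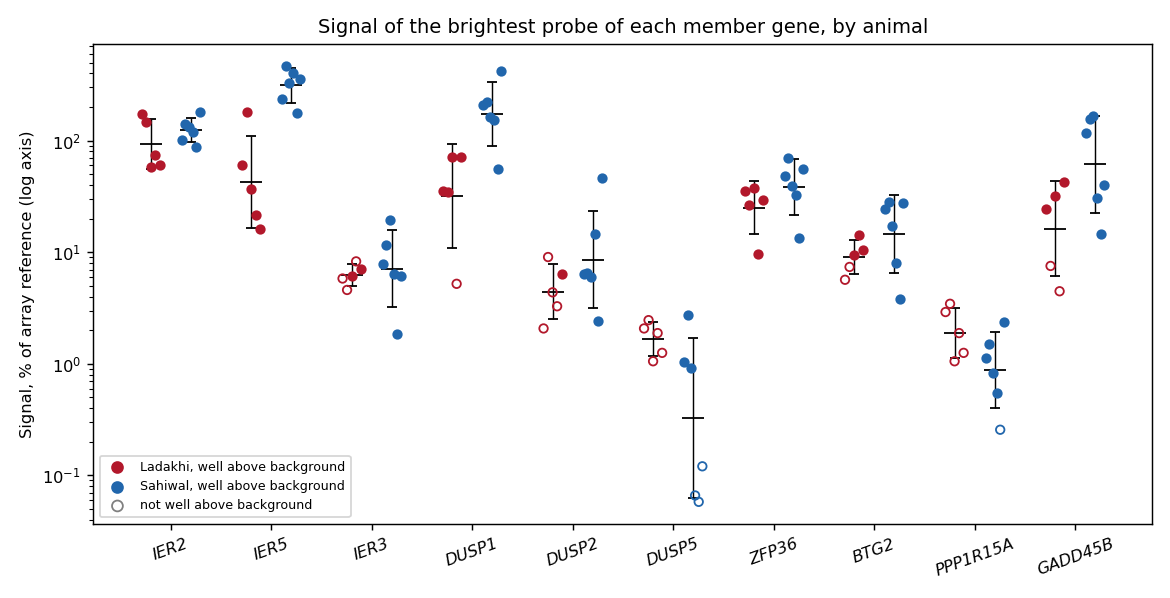
Signal of the brightest probe of each member gene in each animal, as a percent of the array reference on a log axis, Ladakhi left (red) and Sahiwal right (blue). Filled points were well above background, open points were not, and the black bar is the mean of the log2 levels with its SD, dim points included. IER5 and DUSP1 sit lower in Ladakhi animals, IER2 and ZFP36 overlap, and DUSP5 and PPP1R15A have no filled Ladakhi point.

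Among the IER genes, the breeds differed in IER5 and not detectably in IER2 or IER3. IER5, a regulator of heat shock factor 1 and of the phosphatase PP2A, gave 60.7, 180.5, 36.5, 21.5 and 16.3% of reference in Ladakhi animals 1 to 5 with probe A_73_101059. In Sahiwal animals the lowest signal was 176%, the median 343% and the highest 469%. Ladakhi animal 2 stood high among the Ladakhi animals and just above the lowest Sahiwal animal, and the other Ladakhi animals lay under every Sahiwal animal. The mean level was -1.23 ± 1.37 in Ladakhi animals (SD, n = 5) and 1.64 ± 0.52 in Sahiwal animals (SD, n = 6). The difference was -2.88 (SE 0.52), 7.34-fold lower in Ladakhi animals, with an adjusted p of 0.000987 by limma with Benjamini-Hochberg adjustment. The spot was saturated in 1 Sahiwal animal, animal 2, the brightest, so its signal there is a lower limit.

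The other IER5 probes, A_73_P314151 and A_73_P113791, lie 1837 and 923 bases nearer the 5′ end. Both were well above background on all 6 Sahiwal arrays and on no Ladakhi array. In Sahiwal animals A_73_P314151 ranged between 1.06 and 3.39% of reference and A_73_P113791 between 4.73 and 12.7%. The 5′ probes of IER5 could thus not be compared between breeds.

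IER2, a nuclear protein of the early response, gave 175, 148, 58.4, 73.9 and 60.8% of reference in Ladakhi animals 1 to 5 with probe A_73_114011. The lowest, median and highest Sahiwal signals were 88.5, 126 and 179.8%. Ladakhi animals 1 and 2 lay within the Sahiwal range, and the other 3 lay under it. The difference of -0.42 (SE 0.35) did not pass the test (limma adjusted p = 0.344). The other IER2 probe, A_73_P244360, 1180 bases nearer the 5′ end, was well above background on no Ladakhi array and stayed between 0.586 and 1.63% of reference in Sahiwal animals.

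IER3, an inhibitor of apoptosis that also prolongs ERK signalling, was weak. Probe A_73_P504623 gave 5.81, 4.59, 6.08, 8.28 and 7.15% in Ladakhi animals 1 to 5 and was well above background in 2 of them, animals 3 and 5. In Sahiwal animals its lowest, median and highest signals were 1.87, 7.06 and 19.6%. The Ladakhi animals all lay inside the Sahiwal range. The difference of -0.19 (SE 0.47) did not pass the test (limma adjusted p = 0.775), and its sign turned with dim signals raised to the lowest readable signal (0.30). The other IER3 probe, A_73_P031796, was well above background on all 6 Sahiwal arrays, between 1.91 and 17.3%, and on no Ladakhi array.

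DUSP1, the phosphatase (MKP-1) that inactivates p38, JNK and ERK in the nucleus, was lower in Ladakhi animals with both probes they could be read with. Probe A_73_P280851 gave 35.5, 34.4, 71.1 and 71.7% of reference in Ladakhi animals 1, 2, 3 and 5. In Ladakhi animal 4 it was not well above background, at 5.21%. The lowest, median and highest Sahiwal signals were 55.2, 186 and 422%. The groups overlapped only through the lowest Sahiwal animal, animal 5, which lay between the lower and the higher Ladakhi animals. The mean level was -1.65 ± 1.55 in Ladakhi animals (SD, n = 5) and 0.79 ± 0.96 in Sahiwal animals (SD, n = 6). The difference was -2.45 (SE 0.64), with a limma adjusted p of 0.00791, and -2.28 with the dim signal of animal 4 raised to the lowest readable signal.

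Probe A_73_108770 of DUSP1 gave 9.73, 8.91, 3.84, 13.9 and 27.1% of reference in Ladakhi animals 1 to 5 and was well above background in 2 of them. The lowest, median and highest Sahiwal signals were 48.4, 158 and 424%. No Ladakhi animal reached the lowest Sahiwal animal. The difference was -3.97 (SE 0.55), with a limma adjusted p of 0.000184, and -3.77 with dim signals raised to the lowest readable signal. The probes ordered the Ladakhi animals differently: animal 4 was the lowest with A_73_P280851 and the second highest with A_73_108770. That order rests in part on signals not well above background, animal 4 with A_73_P280851 and animals 1, 2 and 3 with A_73_108770. Animal 3 gave 71.1%, well above background, with A_73_P280851 and 3.84% with A_73_108770. With dim signals included, the mean levels of these probes were -1.65 and -3.26 in Ladakhi animals and 0.79 and 0.71 in Sahiwal animals. In Sahiwal animals the same probes gave the same order. The most 5′ DUSP1 probe, A_73_P107251, whose coordinates span 488 bases, was well above background on all 6 Sahiwal arrays, between 2.21 and 16.6%, and on no Ladakhi array.

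DUSP2 (PAC-1), a nuclear phosphatase of activated lymphocytes and myeloid cells, was read in 1 Ladakhi animal. Probe A_73_P081986 gave 2.07, 9.05, 4.37, 3.28 and 6.43% in Ladakhi animals 1 to 5, and only animal 5 was well above background. The lowest, median and highest Sahiwal signals were 2.41, 6.44 and 46%. In this probe 2 Sahiwal animals stood apart, animal 6 at 46% and animal 4 at 14.5%, while the other 4 lay between 2.41 and 6.48%, within the Ladakhi signals. The difference of -0.95 (SE 0.62) did not pass the test (limma adjusted p = 0.232) and was -0.16 without Sahiwal animals 4 and 6. DUSP5, a nuclear phosphatase specific to ERK, was well above background in 3 Sahiwal animals, with signals of 0.0579 to 2.76% over all 6, and in no Ladakhi animal. It was not tested.

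ZFP36, the tristetraprolin gene, gave 35.0, 26.8, 37.5, 9.69 and 29.2% of reference in Ladakhi animals 1 to 5. All 5 signals were well above background. The lowest, median and highest Sahiwal signals were 13.4, 43.7 and 69.4%. Ladakhi animal 4 was the lowest of all 11 animals, and the other Ladakhi animals lay inside the Sahiwal range. The difference of -0.61 (SE 0.45) did not pass the test (limma adjusted p = 0.288).

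BTG2, an antiproliferative partner of the CCR4-NOT deadenylase, gave 5.66, 7.38, 9.37, 14.4 and 10.5% of reference in Ladakhi animals 1 to 5 with probe A_73_P166162 and was well above background in animals 3, 4 and 5. The lowest, median and highest Sahiwal signals were 3.77, 20.7 and 28.0%. Sahiwal animals 1, 2, 3 and 6 exceeded every Ladakhi animal, and animals 4 and 5 did not. The difference of -0.70 (SE 0.50) did not pass the test (limma adjusted p = 0.279). Without Sahiwal animal 5 it was -1.09 and passed, with a limma adjusted p of 0.043. The BTG2 probes A_73_P071471 and A_73_P334221, nearer the 5′ end, were well above background on 5 and 6 Sahiwal arrays and on no Ladakhi array.

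PPP1R15A (GADD34) directs protein phosphatase 1 to eIF2α and so restores translation after stress. Its probe A_73_107607 was well above background on 5 Sahiwal arrays and no Ladakhi array, with Sahiwal signals between 0.257 and 2.35%. Probe A_73_P245286 was well above background on 3 Sahiwal arrays, between 0.0949 and 1.01% over all 6, and was not tested.

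GADD45B, a stress sensor that activates the p38 and JNK pathways through MAP3K4, gave 24.6, 7.53, 32.2, 4.47 and 42.3% of reference in Ladakhi animals 1 to 5 with probe A_73_116438. It was well above background in animals 1, 3 and 5. In Sahiwal animals it gave 117, 155 and 167% in animals 1, 2 and 3, and 30.6, 14.5 and 40.3% in animals 4, 5 and 6. The first 3 Sahiwal animals exceeded every Ladakhi animal, and the other 3 lay inside the Ladakhi signals. The difference was -1.92 (SE 0.72), with a limma adjusted p of 0.0436, and -1.57 with dim signals raised to the lowest readable signal. The call was lost with 10 of the 26 alternatives that tested this probe, among them leaving out any 1 of Ladakhi animals 1, 2 or 4 or Sahiwal animals 1, 2 or 3 (adjusted p 0.0538 to 0.118). The other GADD45B probe, A_73_P379376, was well above background on all 6 Sahiwal arrays, between 0.576 and 6.89%, and on no Ladakhi array.

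**Figure D2:**
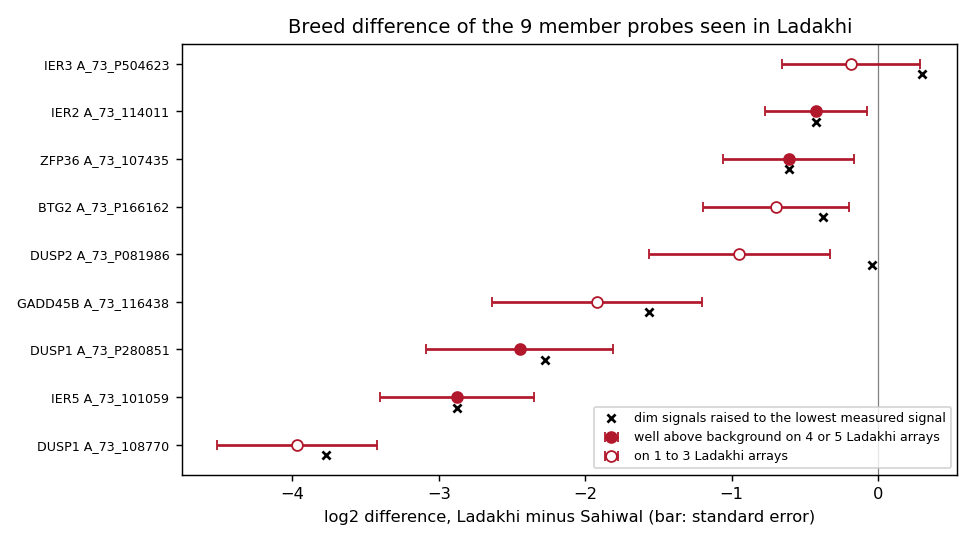
Difference in log2 level, Ladakhi minus Sahiwal, of the 9 member probes that were well above background on at least 1 Ladakhi array, with its standard error. Filled points were readable on 4 or 5 Ladakhi arrays and open points on 1 to 3, and crosses give the difference with dim signals raised to the lowest readable signal. DUSP1, IER5 and GADD45B lie below -1.9, and the other 5 probes lie between -0.95 and -0.19.

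Of the 18 member probes tested, 6 were called lower and 1 higher in Ladakhi animals at an adjusted p under 0.05, where 41.8% of all 17866 tested probes were called, 17.3% lower and 24.5% higher. The member split was 6 higher and 4 lower with normexp background correction, and also with dim signals raised to the lowest readable signal. Of the 7 calls 3, those of IER2 A_73_P244360, IER5 A_73_P113791 and DUSP1 A_73_P107251, were on probes well above background on no Ladakhi array and give no direction. A probe is called readable in both breeds below where it was well above background on 4 or more arrays in each. Among the 4 member probes readable in both breeds, 2 were called lower and 0 higher, where 32.7% of 4048 such probes were called, 14.5% lower and 18.2% higher. Their median difference was -1.53, against -0.02 over the 4048 probes. With 4 probes of 4 genes, these counts describe the members and set them apart from nothing. Among the 5 member probes read on 1 to 3 Ladakhi arrays, 2 were called lower, against 26.4% of 3772 such probes. Scaling turned the split over all tested probes, which was 4380 higher and 3096 lower, to 1510 higher and 6433 lower with quantile normalization.

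Sums of cell type markers differed between the breeds in part. Those of T cell, B cell, neutrophil, platelet and red cell markers overlapped. Summed over 8 genes, monocyte markers reached 201 to 337% of reference in Ladakhi animals and 427 to 1159% in Sahiwal animals, without overlap. Of the 8, CD68, FCGR1A, CD163 and TLR4 were well above background on no Ladakhi array. FCGR1A was so on no Sahiwal array either and CD163 on 2 Sahiwal arrays, while CD68 and TLR4 were so on all 6. LYZ and SPI1 held most of the monocyte sum. LYZ gave 28.3 to 178% in Ladakhi animals and 180 to 516% in Sahiwal animals, and SPI1 83.8 to 136% and 139.5 to 574%. CSF1R, read on all 11 arrays, overlapped, at 22.8 to 48.5% in Ladakhi animals and 17.8 to 69.5% in Sahiwal animals. CD14, read on 1 Ladakhi array, overlapped too, at 1.88 to 8.20% and 2.90 to 14.5%. The sum of 8 neutrophil markers was 186 to 499% in Ladakhi animals and 389.7 to 1780.2% in Sahiwal animals. Sums of 7 NK and cytotoxic markers ran the other way, 237 to 414% in Ladakhi animals and 43.0 to 201% in Sahiwal animals. The highest Sahiwal sum was that of animal 3, where NKG7 was missing as an outlier spot. NKG7 gave 15.0 to 55.2% in the other Sahiwal animals, so whether these sums overlap is not settled. GZMB overlapped, at 7.33 to 65.0% in Ladakhi animals and 9.56 to 83.8% in Sahiwal animals. CST7 did not, at 19.2 to 27.9% in Ladakhi animals and 3.84 to 6.74% in Sahiwal animals. T cell markers summed to 283 to 675% in Ladakhi animals and 149 to 380.4% in Sahiwal animals. CD247 held most of the T cell sum, at 153 to 478% in Ladakhi animals and 90.8 to 221% in Sahiwal animals. CD2 was higher in Ladakhi animals without overlap, at 11.99 to 18.01% against 1.59 to 3.99% in Sahiwal animals. CD247 and CD2 were the 2 T cell markers well above background on all 5 Ladakhi arrays. CD3E ran the other way, at 1.24 to 53.2% in Ladakhi animals and 26.5 to 65.2% in Sahiwal animals. CD3G did so too, at 2.46 to 29.3% and 15.6 to 44.5% in Ladakhi and Sahiwal animals. CD3E was well above background on 2 Ladakhi arrays and CD3G on 3, so their lowest Ladakhi signals are not read as levels. CD3D, read on 4 Ladakhi arrays, gave 9.28 to 140% in Ladakhi animals and 11.8 to 36.8% in Sahiwal animals. B cell markers summed to 132 to 223% in Ladakhi animals and 82.8 to 230.2% in Sahiwal animals. Of the 8 T cell markers, which should be present in PBMCs, 6 were well above background on all Sahiwal arrays and 2 on all Ladakhi arrays. CD6 and TRAT1 were so on no Ladakhi array, and on 5 and 2 Sahiwal arrays. Platelet markers summed to 173 to 235% in Ladakhi animals and 24.9 to 439% in Sahiwal animals, and red cell markers to 31.1 to 55.9% in Ladakhi animals and 7.93 to 161% in Sahiwal animals. The part of cell makeup in the breed differences of IER5, DUSP1 and GADD45B was not tested.

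In neutrophil markers 2 Sahiwal arrays stood apart. CSF3R, the receptor for granulocyte colony-stimulating factor, gave 111 and 150.1% of reference in Sahiwal animals 4 and 6 and at most 7.56% in the other 4. CXCR2, a neutrophil chemokine receptor, gave 36.6 and 26.6% in animals 4 and 6 and was not well above background in the other 4. Among Ladakhi animals it was well above background only in animal 5, at 14.2%. Without Sahiwal animals 4 and 6, an alternative chosen after their markers were seen, the breed difference was -2.73 for IER5 (limma adjusted p = 0.00652). It was -2.17 for DUSP1 A_73_P280851 (limma adjusted p = 0.0334), -3.69 for DUSP1 A_73_108770 (0.00148) and -2.33 for GADD45B (0.042).

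Within the Sahiwal breed, most members varied more between animals than most probes did. The SD of log2 levels over the 6 animals was 1.45 for GADD45B A_73_116438 and 1.44 for DUSP2, larger than in 98.8% and 98.7% of the 14850 probes well above background and unsaturated on all 6 arrays, whose median SD was 0.47. The main IER5 probe, saturated on 1 array, is outside this comparison and had an SD of 0.52. BTG2 had an SD of 1.17, IER3 of 1.14, DUSP1 A_73_P280851 of 0.96 and ZFP36 of 0.83, larger than in 96.8, 96.4, 92.9 and 87.8% of probes. IER2 A_73_114011 had an SD of 0.36, larger than in 30.5% of probes, and the other IER2 probe, A_73_P244360, one of 0.57, larger than in 64.0%. In Ladakhi animals 3 members could be set against the 2714 probes well above background and unsaturated on all 5 arrays, whose median SD was 0.43. Their SDs were 1.37 for IER5, 0.79 for ZFP36 and 0.74 for IER2. These percentiles describe the arrays and were not tested.

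One Sahiwal animal, number 5, was the lowest of the 6 in the brightest probe of each of the 8 members with a probe well above background on every Sahiwal array. The dimmer IER2 probe, A_73_P244360, was lowest in animal 1 instead (0.586% of reference), with 0.684% in animal 5. Its array was not dim, with 20408 spots well above background. The highest animal differed between members: animal 2 was highest in IER5, ZFP36 and BTG2, animal 3 in IER3 and GADD45B, and animal 6 in IER2, DUSP1 and DUSP2. Relative to the breed mean, animal 5 was lower by 2.09 in GADD45B and by 0.49 in IER2 on the log2 scale, with the other 6 members between. Animals 1 and 2 shared a slide and animals 3 to 6 another, too few for a correlation within a slide.

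**Figure D3:**
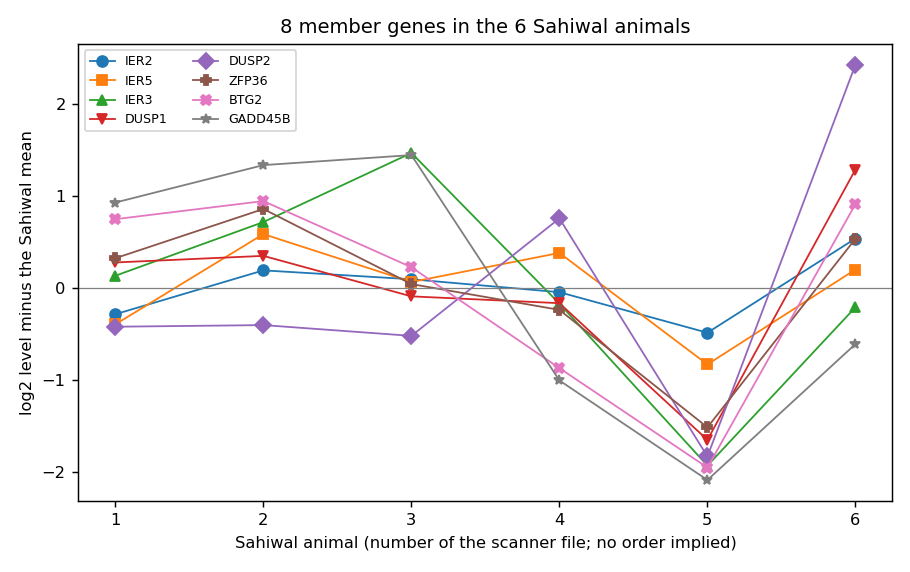
Log2 level of the brightest probe of 8 member genes in each Sahiwal animal, minus the mean of the 6 animals. Lines join the points of a gene and animals have no order. All 8 probes shown are lowest in animal 5, DUSP2 stands highest in animal 6, and GADD45B and IER3 peak in animal 3.

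The 8 members gave 28 pairs, of which 27 had a positive Pearson's r over the 6 Sahiwal animals, with a median of 0.71 and a range of -0.01 to 0.96. Each member's median r with the other 7 lay between 0.49 and 0.84, where its median r with 14730 other probes lay between -0.37 and -0.10. Of these, 6 pairs had an exact two-sided permutation p under 0.05 and 3 passed Benjamini-Hochberg adjustment over the 28 pairs. By Spearman's rho 4 pairs had an exact p under 0.05 and 0 passed adjustment. The smallest p that the 720 pairings allow is 0.00139.

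ZFP36 and BTG2, whose products recruit or stimulate the CCR4-NOT deadenylase, followed each other most closely. Their r was 0.96 (exact permutation p = 0.00139, adjusted p = 0.0389) and their rho 1 (exact p = 0.00278, adjusted p = 0.0778), and r was 0.96 without the 2 animals farthest from the median of ZFP36. IER3 and GADD45B had an r of 0.91 (exact p = 0.00278, adjusted p = 0.0389) and a rho of 0.94 (exact p = 0.0167, adjusted p = 0.117), and r was 0.89 without the 2 farthest animals. DUSP1 and BTG2 had an r of 0.90 (exact p = 0.00417, adjusted p = 0.0389) and a rho of 0.94 (exact p = 0.0167, adjusted p = 0.117), and r was 0.89 without the 2 farthest animals. Among 14730 other probes, 0.0543% followed ZFP36, and 0.0543% followed BTG2, at least as closely as these genes followed each other. DUSP1 and ZFP36, with an r of 0.90, did not pass adjustment (exact p = 0.0222, adjusted p = 0.156). DUSP2 and GADD45B had the lowest r, -0.01 (exact p = 0.986).

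These relations rested in large part on animal 5. Without it, in the remaining 5 animals and with no test, the median r over the 28 pairs was 0.17 and 20 pairs were positive. ZFP36 and BTG2 then had an r of 0.90, IER3 and GADD45B of 0.83 and DUSP1 and BTG2 of 0.67, while DUSP2 and GADD45B had -0.81. Without animals 4 and 6 instead, and with no test, all 28 pairs were positive over the remaining 4 animals, with a median of 0.87. Those 4 still include animal 5, the lowest in all 8 members, so these values cannot show the relations apart from it. When the reference level was set over all probes, after normexp background correction, or when a gene's probes were averaged, 0 pairs passed adjustment.

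**Figure D4:**
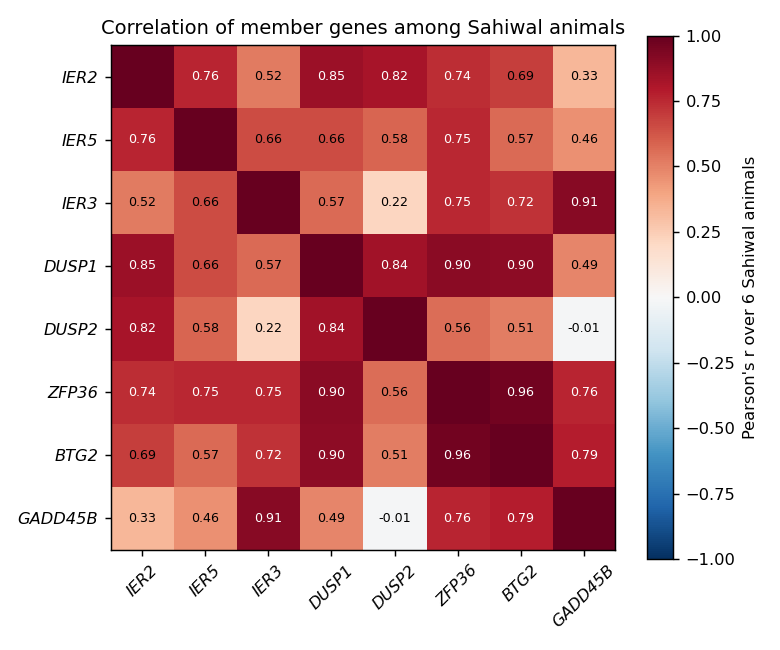
Pearson's r of each pair of the 8 member genes over the 6 Sahiwal animals, printed in each cell, with red for positive and blue for negative. ZFP36, BTG2 and DUSP1 form the deepest block (0.90 to 0.96), and the pair of DUSP2 and GADD45B is near 0 (-0.01).

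In the 5 Ladakhi animals a correlation was not computed. Animal 4 had the lowest signals of ZFP36, DUSP1 A_73_P280851 and GADD45B, and the highest of BTG2 and IER3. Of these signals, those of ZFP36 and BTG2 were well above background. Animal 2 had the highest signal of IER5 and animal 1 of IER2. The lowest animal differed among the 3 members well above background on all 5 arrays: animal 3 for IER2, animal 5 for IER5 and animal 4 for ZFP36.

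Probes of the same gene mostly moved together over the Sahiwal animals. Of 10 pairs of probes of 1 gene, 9 had an r between 0.919 and 0.998, each with an adjusted p of 0.0123 or less by an exact permutation test over the 6 animals, adjusted over the 10 pairs. By rank, 3 of the 10 pairs had a rho of 1, and the BTG2 pair had a rho of 0.77 (exact p = 0.103, adjusted p = 0.114). The exception by r was IER2, whose probes had an r of 0.43 (exact p = 0.396, adjusted p = 0.396) and a rho of 0.31 (exact p = 0.564). DUSP1 A_73_P280851 and A_73_108770 had an r of 0.98, and the GADD45B probes, 530 bases apart, of 0.998.

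The genes whose pattern over the 6 Sahiwal animals was most like each member's were taken from 7561 named genes by Pearson's r, as a description. For ZFP36 they were ATG4D, JUNB (a subunit of AP-1) and NDUFB11, with r of 0.98 each. NDUFB11 (0.997) and RASGRP2 (0.99) came first for BTG2, with CRYBA4 (0.97) after them. GADD45B was followed by H2AX (0.996), CSRNP1 (0.99) and the chemokine gene CXCL2 (0.99). CXCL2 gave 84.2, 151 and 134% of reference in Sahiwal animals 1, 2 and 3 and 5.72, 2.83 and 16.8% in animals 4, 5 and 6, the same division that GADD45B showed. The nearest genes to IER3 were IRG1, TH and ARID5A (0.98 to 0.99). For DUSP1 they were ATP6V1F, DPM2 and the nuclear receptor gene NR4A1 (0.96 each), and for DUSP2 ATG9A, ENPP5 and PEX19 (0.98 to 0.99). IER5 was followed by LLGL2, BTG1 and ATP6V1G1 (0.98 to 0.99), and IER2 by B3GNT2, SEC14L1 and IFNAR2 (0.97 to 0.98). Over 6 animals, 35 of the 7561 genes had an r of at least 0.95 with GADD45B and 4 with DUSP1.

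Of other MAP kinase phosphatases, a list of 10 genes, 7 probes were tested, and 5 of them were well above background on no Ladakhi array. Of the 7, 1 was called lower and 0 higher, and 0 were readable in both breeds. Over all tested probes 17.3% were called lower and 24.5% higher. Over all probes readable in both breeds, against which the readable probes of the lists below stand, 14.5% were called lower and 18.2% higher. In each list, probes of 1 gene are counted apart. MAP kinases and their upstream kinases had 15 readable probes, of which 4 were called higher and 2 lower in Ladakhi animals, with a median difference of 0.13. MAP2K7, the kinase of JNK, was higher by 2.14 in Ladakhi animals (limma adjusted p = 0.000472). Its level was -2.99 ± 0.76 in Ladakhi animals (SD, n = 5) and -5.13 ± 0.28 in Sahiwal animals (SD, n = 6). It was well above background on 4 Ladakhi arrays. The Sahiwal mean lay under the lowest readable level of every Ladakhi array (-4.26 to -3.03). At such a level a probe counts as readable in both breeds only if its Ladakhi signal is higher, so the filter favours this direction. MAPKAPK2, the p38-dependent kinase that phosphorylates ZFP36, differed by -0.91 (limma adjusted p = 0.0421). Its call was lost with 17 of 27 alternatives, among them the fit with the replicate number as a block (adjusted p = 0.0845).

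Relatives of ZFP36, BTG2 and IER5 had 7 readable probes, 3 called higher and 2 lower, and their median difference was -0.48. TOB1, an antiproliferative deadenylase partner, was higher by 1.79 (limma adjusted p = 0.00211). Its Sahiwal mean level, -4.67, also lay under the lowest readable level of every Ladakhi array, so the limit given for MAP2K7 holds here too. BTG1, a relative of TOB1, differed by -1.28 (limma adjusted p = 0.00385). IER5L, a paralog of IER5, differed by -0.54 without passing the test (limma adjusted p = 0.525). The deadenylation and decay machinery had 12 readable probes, 4 of them called higher and 2 lower, and the median difference was -0.09. PAN3, a subunit of the PAN2-PAN3 deadenylase, was higher by 1.54 (limma adjusted p = 0.0028). Its Sahiwal mean level, -3.49, lay under the lowest readable level of Ladakhi arrays 1, 2 and 4 (-3.28, -3.03 and -3.41). The filter therefore favours this direction for PAN3 too. The poly(A)-binding protein gene PABPC1 was higher by 1.22 (limma adjusted p = 0.00193, with Sahiwal animal 2 missing as an outlier spot), and the CCR4-NOT subunit CNOT3 by 0.96 (limma adjusted p = 0.0102).

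The GADD45 and protein phosphatase 1 partners had 7 readable probes, 0 called in either direction, and a median difference of -0.09. PPP1CA, a catalytic subunit of protein phosphatase 1, differed by -0.70 (limma adjusted p = 0.054) and passed with 9 of 27 alternatives. The stress factor gene DDIT3 differed by -0.32 and GADD45A by -0.24, with limma adjusted p of 0.723 and 0.607. Of the AU-rich messages that ZFP36 is known to bind, such as cytokine messages, 20 probes were tested, 3 were called lower and 0 higher, and 13 were well above background on no Ladakhi array. Both counts lie near the shares over all probes: 17.3% of tested probes were called lower, and 56.2% of those readable on 4 or more Sahiwal arrays were on no Ladakhi array. None was readable in both breeds.

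Other early response factors had 14 readable probes, 2 called higher and 7 lower, and a median difference of -1.48 against -0.02 over all 4048. JUNB differed by -2.19 (limma adjusted p = 0.0258), at a level of -1.32 ± 1.95 in Ladakhi animals (SD, n = 5) and 0.87 ± 0.84 in Sahiwal animals (SD, n = 6). Its call was lost without Sahiwal animal 2 (adjusted p = 0.0549), without animals 4 and 6 together, and with quantile or loess scaling. FOSB, another subunit of AP-1, differed by -2.16 (limma adjusted p = 0.00518). NFKBIA, the feedback inhibitor of NF-κB, differed by -1.93 (limma adjusted p = 0.0118), at -0.79 ± 0.20 in Ladakhi animals (SD, n = 5) and 1.14 ± 1.38 in Sahiwal animals (SD, n = 6), and lost its call with loess scaling.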

How the data were processed

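The intensity values are the background-subtracted processed signals the authors deposited in Agilent Feature Extraction files, made with version 12.0.1.1 for Ladakhi and 9.5.3.1 for Sahiwal arrays per the file headers. The authors' deposited log2 value table, centred per probe, was used as an alternative: its 11 columns each follow another array of the same breed (r at least 0.995) than the one of that label (r at most 0.657). Animal numbers here are those of the scanner files. One array per animal is assumed from the labels; p-values measure the spread between these samples.

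Control spots and 294 outlier spots were left out, spots of a probe averaged, and log2 signals centred on the 75th percentile of the 2705 probes well above background on all 11 arrays. The 17866 probes with a signal well above background on 4 or more arrays in 1 breed or both were tested with limma 3.58.1 in R 4.3.3 (two-sided, Benjamini-Hochberg, threshold 0.05), after a test on simulated data. The number of arrays limits the precision. No slide held both breeds. Correlations used the brightest probe of each gene and exact permutation tests (scipy 1.17.1). Alternatives varied scaling, background, filter, saturation, slide and replicate block, and animals left out.

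Every member probe is named, and of each list the 3 genes with the largest difference among those read in both breeds, except 1 gene that is not reported here. The members and lists were chosen with earlier results of these data known. Probe sequences, coordinates and gene names are those of the array files.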

Additional observations from a re-analysis of the deposited data

Results flagged for a closer look

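In 22 groups of 5 or 6 animals, the gap between an extreme animal and its nearest neighbour was set against the range of the group. Of these, 2 gaps were wide enough to stand out at the level at which chance gives about 1 in 20, and both belong to Ladakhi animal 4. DUSP1 probe A_73_P280851 gave 5.21% of reference there, not well above background, with the nearest Ladakhi animal at 34.4% and a gap of 0.720 of the range (critical value 0.71). Without this animal the breed difference of the probe was smaller, -1.80, and still passed (limma adjusted p = 0.012). ZFP36 gave 9.69% there, well above background, with the nearest animal at 26.8% and a gap of 0.751 of the range. The ZFP36 difference without this animal was -0.27 (limma adjusted p = 0.63).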

How the results depend on the processing

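The count of 7 member probes called was 4 with cyclic loess and 1 among probes well above background on all arrays, and 5 to 8 with 1 animal left out. It was 10 with normexp and 10 with the floor, 6 higher and 4 lower in each. The 2 called among probes read in both breeds became 1 with that filter and 1 without saturated probes, and stayed 2 with any animal left out. The 3 correlated pairs became 0 with the reference over all probes, 0 with normexp and 0 when a gene's probes were averaged. IER5 A_73_101059 and both DUSP1 probes kept direction and call in all 26 alternatives that tested them.

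Signs turned for IER2 A_73_114011 with loess (0.014). They turned for IER3 A_73_P504623 with quantile (0.076), loess (0.17), normexp (0.70), the floor on dim signals (0.30) and without Sahiwal animal 3 (0.11, range -0.57 to 0.11), and for DUSP2 with normexp (0.13). IER5L turned without Ladakhi animal 2 (0.055, range -0.83 to 0.055) and without Sahiwal animals 4 and 6 (0.082). DDIT3 turned with loess (0.13), normexp (0.55), the floor (0.012) and without Ladakhi animal 5 (0.53, range -0.64 to 0.53). GADD45A turned with quantile (0.041), loess (0.19), normexp (0.26) and without Sahiwal animals 4 and 6 (0.13). Among correlations, IER2 with GADD45B was -0.15 when probes were averaged, and DUSP2 with GADD45B 0.11 with the reference over all probes and 0.11 with quantile scaling. The cause was not tested. The median difference of the 4048 probes read in both breeds, -0.02, was 0.17 with quantile, 0.41 with loess and 0.27 with normexp.

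Over all probes 7476 calls became 3748 with loess, 13478 with normexp, 12515 with the floor, 34473 unfiltered and 1100 on all arrays. With normexp they split into 12358 higher and 1120 lower, and with the floor into 10951 and 1564. Animals of the same number did not deviate together (r -0.07 to 0.05), so the number is a label only. With the replicate block, 7 member probes were called. Slide as a random block gave a correlation of -0.11. Signal over background limits the Ladakhi readings.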
